A study of Mus musculus with 6 samples.

Results

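The clustered histone genes were taken as the probe sets whose gene symbols all name H1, H2A, H2B, H3 or H4 histone genes of the Hist1, Hist2, Hist3 or Hist4 clusters, under their older or newer names. This gave 58 of the 23410 probe sets that carry a gene symbol, with 8 for H1, 5 for H2A, 18 for H2B, 13 for H3, 13 for H4 and 1 that names an H1 and an H2B gene. Of the 58, 34 named a single gene and 24 named several. Together they named 58 of the 21344 genes of the annotation, 45 of them on chromosome 13, 6 on chromosome 3, 3 on chromosome 11, 3 on chromosome 6 and 1, H1f7, on chromosome 15. The letters of the newer names also take in H1f7, H1f8 and H1f10, linker histone genes outside the clusters, so 55 probe sets belonged to the clusters themselves.

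The arrays measured bone marrow stromal cells, the adherent marrow cells that can form fat and bone cells, from C57BL/6 mice aged 6 months. There were 3 arrays of cells from mice labelled as miR-188 knockouts (KO) and 3 of cells from wild-type mice (WT). All 6 cultures were in adipogenic medium with 10% fetal calf serum and 3 inducers, namely dexamethasone at 1 µM, insulin at 5 µg/ml and 3-isobutyl-1-methylxanthine (a phosphodiesterase inhibitor) at 0.5 mM, so no culture without induction served as a baseline. The labels call the arrays of each genotype biological replicates. The days in this medium, the extent of the deletion and whether each culture came from its own mouse are unknown here. The p-values thus reflect the spread among these cultures alone, which need not be the spread among mice.

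H2A, H2B, H3 and H4 are the core histones around which DNA is wound in the nucleosome, and H1 is the linker histone that binds where DNA enters and leaves it. Cells make most core histone mRNA in S phase, when new DNA must be packaged, from many near-identical gene copies. Most of these mRNAs end in a stem-loop in place of a poly(A) tail, and the stem-loop binding protein governs their processing and stability. Labelled cRNA was made from 6 µg of total RNA, and the primer used for this, which decides how well RNA without a tail is copied, is unknown here.

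The log2 values of the whole table ran between 2.11 and 14.4, and the array medians between 7.19 and 7.23. Across probe sets the correlation was 0.994 to 0.997 between arrays of the same genotype and 0.991 to 0.995 between arrays of different genotypes. The Mir188 probe set read 7.22, 7.22 and 7.13 in KO and 7.22, 7.27 and 7.38 in WT, a difference of -0.10 that did not pass the test (SE 0.05, limma adjusted p = 0.357). The extent of the deletion being unknown here, this probe set does not check the genotype labels. Background was set at 6.82, the level under which 95% of 1035 olfactory receptor probe sets fell, and 52 of the 58 histone probe sets lay above it.

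Histone H3 and a few single genes of the other classes were lower in KO, and no histone probe set was higher. Of the 58 probe sets, 13 fell in KO at a limma adjusted p under 0.05, 0 rose, and 45 did not pass the test. Over all 23410 probe sets 3.68% fell and 2.98% rose, 6.66% in all. This balance of 861 falls and 697 rises turned to 689 and 904 after quantile normalization and to 726 and 899 after cyclic loess. The values of the 3 KO arrays lay below those of the 3 WT arrays for 20 histone probe sets, against 13.4% of all probe sets. Among other probe sets with a mean level of at least 12, this share was 33.3%. The KO values lay above the WT values for 0 histone probe sets, against 10.9% of all probe sets. The KO minus WT difference was negative for 46 and positive for 12, and its median was -0.03 on the log2 scale, against 0.00 over all probe sets. Of the 13 falls 9 were H3 probe sets, 2 were H2B, 1 was H2A, 1 was H1, and 0 were H4. The 9 H3 probe sets list the same 12 genes and are not independent readings, and 4 falls were left with 1 probe set per gene. At an unadjusted p under 0.05, 21 histone probe sets differed, against 20% of all probe sets.

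The number of falls depended on single arrays. Leaving out KO replicate 1 gave 7 falls, KO replicate 2 gave 5, and KO replicate 3 gave 0. Leaving out WT replicate 1 gave 0, WT replicate 2 gave 3, and WT replicate 3 gave 0. Over all probe sets there were 68 to 545 falls with 1 array left out, against 861 with all 6. As these are bulk cultures, fewer cells that make a transcript and less of it per cell cannot be told apart.

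**Figure D1:**
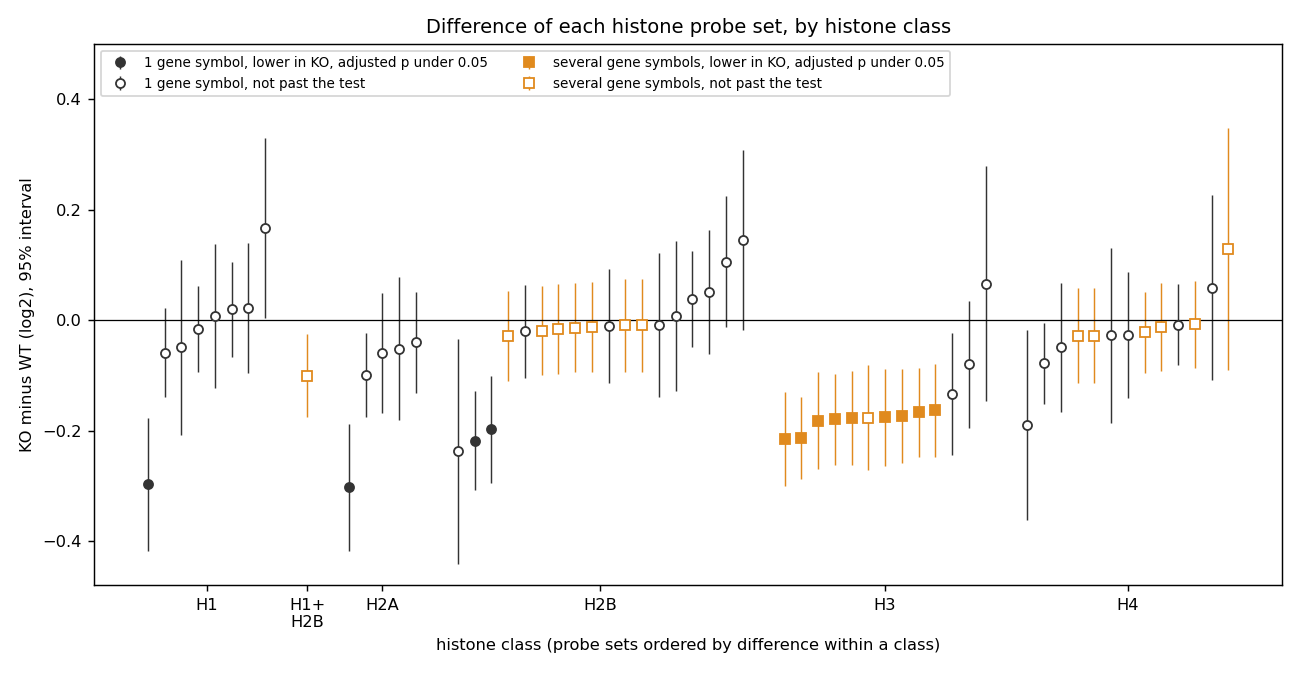
KO minus WT difference on the log2 scale for each of the 58 histone probe sets, with the 95% interval of the limma fit, by histone class along the horizontal axis. Filled symbols passed the test at an adjusted p under 0.05. The squares of the H3 class, probe sets shared by 12 genes, lie between -0.21 and -0.16, while the squares of H2B lie between -0.03 and -0.01.

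H3 forms the centre of the nucleosome together with H4, and its tail carries many of the known histone marks. Of the 13 H3 probe sets, 10 each list the same 12 genes, H3c1, H3c2, H3c3, H3c4, H3c6, H3c7, H3c8, H3c10, H3c11, H3c13, H3c14 and H3c15, whose coding sequences are near copies. These shared probe sets read the H3 family and not a single gene, and they are not independent of each other: over the 6 arrays the lowest correlation between any 2 of them was 0.963 and the median 0.994. They are named here by their number on the array.

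The H3 probe set 10494405 read 12.53, 12.48 and 12.52 in KO and 12.73, 12.71 and 12.73 in WT. The H3 probe set 10494402 read 12.08, 11.99 and 12.07 in KO and 12.28, 12.25 and 12.26 in WT. All KO values lay below all WT values in both. The difference was -0.21 for each, with an SE of 0.03 and a limma adjusted p of 0.0139 for the first and an SE of 0.04 and a limma adjusted p of 0.0200 for the second. A difference of -0.21 corresponds to a 1.16-fold lower level in KO. The accession lists of these 2 probe sets open with the Hist2 genes H3c15, H3c13 and H3c14, while those of the other 8 open with Hist1 genes alone.

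The other 8 shared H3 probe sets differed by between -0.18 and -0.16. The probe set 10403941 read 12.61, 12.51 and 12.59 in KO and 12.76, 12.75 and 12.75 in WT (limma adjusted p = 0.0379). The probe set 10404028 read 12.62, 12.54 and 12.60 in KO and 12.77, 12.77 and 12.76 in WT (limma adjusted p = 0.0311). The probe set 10408239 read 12.77, 12.67 and 12.73 in KO and 12.90 in each WT array (limma adjusted p = 0.0355). In each of these the 3 KO values were lower than every WT value, KO replicate 2 was the lowest array and the WT arrays were close together. The probe set 10404065 read 12.78, 12.68 and 12.74 in KO and 12.91 in each WT array (limma adjusted p = 0.0411). The probe set 10408083 read 12.64, 12.55 and 12.60 in KO and 12.77 in each WT array (limma adjusted p = 0.0393). The probe set 10404049 read 12.76, 12.68 and 12.74 in KO and 12.90 in each WT array (limma adjusted p = 0.0379). Again the groups did not overlap. The probe set 10408246 read 12.60, 12.52 and 12.58 in KO and 12.71, 12.74 and 12.73 in WT (limma adjusted p = 0.0438). The probe set 10408202 read 12.63, 12.50 and 12.57 in KO and 12.73, 12.75 and 12.74 in WT, and it missed the threshold at a limma adjusted p of 0.0510.

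Over the 10 shared H3 probe sets the mean level was 12.60, 12.51 and 12.57 in the KO arrays and 12.75, 12.74 and 12.75 in the WT arrays. KO replicate 2 was the lowest and KO replicate 1 the highest KO array in all 10. The SD was 0.027 to 0.062 in KO and 0.0012 to 0.016 in WT, so the spread was wider among the KO cultures. All 10 stayed negative in each of 13 alternative settings, between -0.23 and -0.11. The number of the 10 that passed the test was 6 without KO replicate 1, 2 without KO replicate 2, 1 without WT replicate 2, and 0 without KO replicate 3, WT replicate 1 or WT replicate 3. With all 6 arrays, 1 passed after quantile normalization, 2 after cyclic loess and 1 with all rows of the table in the fit. All 10 passed above background, with array weights or with a variance trend. The array weights were 8.62 for WT replicate 3 and 0.488 to 1.26 for the other arrays, so that setting leaned on WT replicate 3.

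**Figure D2:**
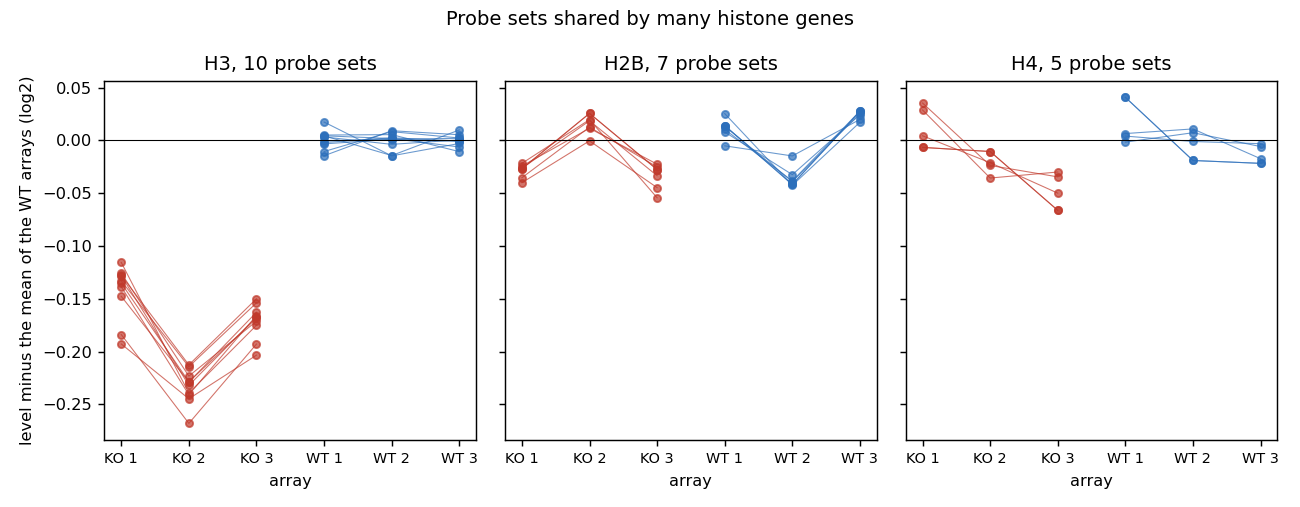
Level of each probe set shared by many histone genes, minus its own mean over the 3 WT arrays (log2), on every array; a line joins the arrays of a genotype for a probe set. All KO points of the 10 H3 probe sets lie below their WT points, whereas KO and WT points overlap for the 7 H2B and 5 H4 probe sets.

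The shared probe sets of H2B and H4, which also lie near the top of the scale, did not pass the test. H2B pairs with H2A at the outer faces of the nucleosome. The 7 shared H2B probe sets each name 14 or 15 genes, and their differences were between -0.03 and -0.01, with limma adjusted p between 0.715 and 0.921 and 95% intervals within -0.11 and 0.08. The brightest of them, 10403980, read 12.85, 12.90 and 12.86 in KO and 12.90, 12.85 and 12.91 in WT. KO replicate 2, the lowest KO array for H3, was the highest KO array in all 7. The 5 shared H4 probe sets each name 11 genes, and their differences were between -0.03 and -0.01, with limma adjusted p between 0.736 and 0.933 and 95% intervals within -0.11 and 0.07. The brightest, 10404067, read 13.19, 13.12 and 13.13 in KO and 13.17, 13.17 and 13.14 in WT. The groups overlapped for all 12 of these probe sets, which are not independent readings. The H2B probe sets 10403959 and 10408087 had equal values on every array, as did the H4 probe sets 10403957 and 10408092. Under quantile normalization or cyclic loess the H2B differences turned slightly positive, at most 0.03, and the H3 differences stayed negative. The difference between the H3 probe sets and those of H2B or H4 was not itself tested.

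For comparison at the same brightness, 742 other probe sets with a mean level of at least 12 were taken. Of these 3.64% fell and 1.35% rose at an adjusted p under 0.05, their median difference was -0.02, and 33.3% had all KO values below all WT values. The corresponding share over all probe sets was 13.4%.

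The 3 H3 probe sets that name a single gene were dim and did not pass the test. H3c4 read 7.36, 7.24 and 7.31 in KO and 7.42, 7.42 and 7.31 in WT, a difference of -0.08 (limma adjusted p = 0.435). H3c7 and H3c15 lay below background. H3c7 read 4.08, 4.21 and 4.21 in KO and 4.33, 4.26 and 4.31 in WT, a difference of -0.13 (limma adjusted p = 0.169). H3c15 read 5.46, 5.46 and 5.44 in KO and 5.46, 5.53 and 5.17 in WT, a difference of 0.07 (limma adjusted p = 0.753), which was -0.04 without WT replicate 3. No H3 fall was therefore seen for a single named gene. A further 2 bright probe sets, of 19 and 20 genes, list mostly H2A genes, with H3c4 as their only H3 gene. Both also list the variant gene H2ax, and 1 of them H2aj, and they were not counted among the 58. They differed by -0.10 (limma adjusted p = 0.117) and -0.06 (limma adjusted p = 0.353), with no overlap of KO and WT in either.

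In all, 4 single genes of the H1, H2A and H2B classes fell in KO. H2ac4, a Hist1 gene for H2A, read 6.78, 6.90 and 6.88 in KO and 7.18, 7.08 and 7.19 in WT. It was the largest fall of the 58, at -0.30 (SE 0.05, limma adjusted p = 0.0175), a 1.23-fold lower level, but its KO mean of 6.85 was close to the background level of 6.82. H1f1, which encodes the linker histone H1.1, read 9.24, 9.37 and 9.21 in KO and 9.60, 9.54 and 9.58 in WT. It differed by -0.30 (SE 0.05, limma adjusted p = 0.0214). H2bc18, a Hist2 gene for H2B, read 8.24, 8.35 and 8.28 in KO and 8.51, 8.51 and 8.50 in WT. It differed by -0.22 (SE 0.04, limma adjusted p = 0.0225). H2bc8, a Hist1 gene for H2B, read 8.67, 8.66 and 8.58 in KO and 8.89, 8.81 and 8.81 in WT. It differed by -0.20 (SE 0.04, limma adjusted p = 0.0390).

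The groups did not overlap for any of the 4, against 13.4% of all probe sets with KO below WT. The 4 were picked by the test, so this separation adds no further support. With 1 array left out the limma adjusted p of H2ac4 was 0.0350 to 0.0976, and the call was lost without KO replicate 3, WT replicate 1 or WT replicate 3. H1f1 passed without KO replicate 2 and in none of the other 5 omissions (limma adjusted p 0.0241 to 0.110). H2bc18 likewise passed without KO replicate 2 alone (limma adjusted p 0.0329 to 0.107). H2bc8 passed in 0 of the 6 omissions (limma adjusted p 0.0738 to 0.128). The difference of each stayed negative in every alternative run.

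**Figure D3:**
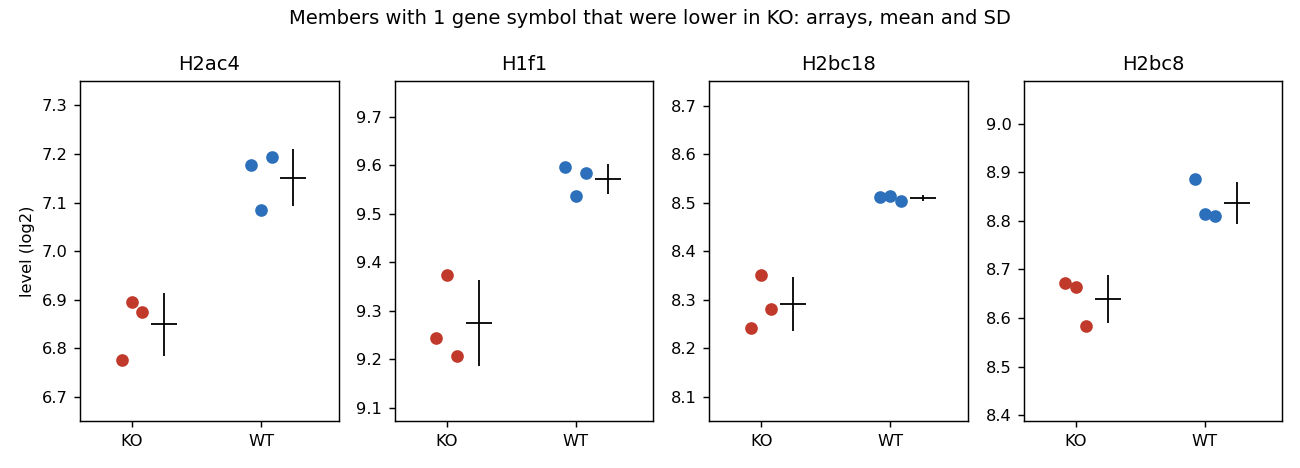
Level (log2) of the 4 single-gene histone probe sets that fell in KO, with a point for each array and the mean ± SD (n = 3) beside it; each panel has its own vertical range. The highest KO point lies below the lowest WT point in every panel.

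The rest of each class did not pass the test. Among the linker histones, H1f2, for H1.2 and the brightest of the class, read 12.19, 12.22 and 12.27 in KO and 12.29, 12.27 and 12.29 in WT, a difference of -0.06 (limma adjusted p = 0.411). H1f3, for H1.3, read 5.92, 6.16 and 6.10 in KO and 5.96, 5.86 and 5.86 in WT, below background, a difference of 0.17 (limma adjusted p = 0.239) that passed with array weights (limma adjusted p = 0.0254). H1f5, for H1.5, read 9.26, 9.41 and 9.32 in KO and 9.35, 9.24 and 9.38 in WT, a difference of 0.01 (limma adjusted p = 0.965). Only H1f1 of the 8 H1 probe sets thus passed. The probe set for H2bc6 and H1f4 read 8.39, 8.39 and 8.40 in KO and 8.53, 8.47 and 8.49 in WT, a difference of -0.10 (limma adjusted p = 0.131). H1f7, H1f8 and H1f10, outside the clusters, differed by 0.02, -0.05 and 0.02. The testis histone genes H1f6, H2ac1 and H2bc1 differed by -0.02, -0.06 and -0.01.

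The 5 H2A probe sets all had negative differences, with a median of -0.06. H2ac15, the brightest, read 11.83, 11.83 and 11.81 in KO and 11.89, 11.95 and 11.93 in WT, a difference of -0.10 (limma adjusted p = 0.136). H2aw, the Hist3 gene for H2A, read 10.87, 10.75 and 10.81 in KO and 10.85, 10.86 and 10.83 in WT, a difference of -0.04 (limma adjusted p = 0.639). The groups were apart for H2ac15 and overlapped for H2aw. The 2 bright probe sets that list many H2A genes beside H2ax lie outside these 5, with the differences of -0.10 and -0.06 given above.

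The 18 H2B probe sets ranged between -0.24 and 0.15, with a median of -0.01. H2bc3, the lowest difference of this class, read 9.66, 9.74 and 9.66 in KO and 10.07, 9.73 and 9.98 in WT, a difference of -0.24 (SE 0.08, limma adjusted p = 0.180). WT replicate 2 read like the KO arrays, and without it the difference was -0.33 (limma adjusted p = 0.0347). No other omission of an array passed, and without WT replicate 1 the difference was -0.17 (limma adjusted p = 0.401). H2bc21, a Hist2 gene below background, read 6.37, 6.17 and 6.33 in KO and 6.05, 6.19 and 6.20 in WT, a difference of 0.15 (limma adjusted p = 0.308). H2bc4, the brightest single H2B gene, read 12.70, 12.78 and 12.72 in KO and 12.71, 12.66 and 12.71 in WT, a difference of 0.04 (limma adjusted p = 0.633).

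None of the 13 H4 probe sets passed the limma test, 2 had an unadjusted p under 0.05, and their median difference was -0.03. H4c9 read 8.02, 8.18 and 8.11 in KO and 8.44, 8.22 and 8.22 in WT, a difference of -0.19 (SE 0.07, limma adjusted p = 0.207). H4c4 read 13.07 in each KO array and 13.13, 13.17 and 13.13 in WT, a difference of -0.08 (limma adjusted p = 0.217). KO and WT were apart by little in both. The probe set for H4c17 and H4c11 read 7.26, 7.54 and 7.36 in KO and 7.35, 7.11 and 7.32 in WT, a difference of 0.13 (limma adjusted p = 0.516). H4c14, the Hist2 gene for H4, differed by -0.01 (limma adjusted p = 0.920), with a 95% interval between -0.08 and 0.06. By cluster, 3 of 23 single-gene probe sets of Hist1, 1 of 4 of Hist2 and 0 of 3 of Hist3 fell, against 3.68% of all probe sets. H4f16, the Hist4 gene, did not pass the test (limma adjusted p = 0.654). Sets this small cannot tell the clusters apart.

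The promoters of the called single genes, of H3c13 from the accession lists of the 2 lowest shared H3 probe sets, and of H4c4 as the brightest single H4 gene are printed to show which of 4 promoter motifs each holds. Each is the 200 bases before the annotated start, 5′ to 3′ on the plus strand, from RefSeq on GRCm38.p6, and capitals mark matches on either strand. The motifs searched, which may overlap, were CCAAT, the TATA box in the form TATAAA, the octamer ATTTGCAT known from H2B promoters and the box AAACACA known from H1 promoters. Among these 6 the H1 box was matched in H2ac4 and not in H1f1, the octamer in H2ac4, H2bc18 and H2bc8, and CCAAT in all 6.
H1f1, chr13:23763468-23763667: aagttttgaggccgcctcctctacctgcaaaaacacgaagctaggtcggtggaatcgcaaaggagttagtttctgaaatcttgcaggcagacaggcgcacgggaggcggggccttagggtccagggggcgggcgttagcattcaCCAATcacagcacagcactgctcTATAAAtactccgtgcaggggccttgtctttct
H2ac4, chr13:23750888-23751087: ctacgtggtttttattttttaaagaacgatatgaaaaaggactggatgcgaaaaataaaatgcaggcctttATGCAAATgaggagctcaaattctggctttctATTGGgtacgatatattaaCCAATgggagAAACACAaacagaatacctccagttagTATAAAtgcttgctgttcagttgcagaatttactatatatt
H2bc18, chr3:96269500-96269699: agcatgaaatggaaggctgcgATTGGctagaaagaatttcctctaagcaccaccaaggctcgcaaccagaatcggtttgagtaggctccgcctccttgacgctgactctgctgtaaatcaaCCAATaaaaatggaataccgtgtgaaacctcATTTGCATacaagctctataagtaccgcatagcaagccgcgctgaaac
H2bc8, chr13:23571200-23571399: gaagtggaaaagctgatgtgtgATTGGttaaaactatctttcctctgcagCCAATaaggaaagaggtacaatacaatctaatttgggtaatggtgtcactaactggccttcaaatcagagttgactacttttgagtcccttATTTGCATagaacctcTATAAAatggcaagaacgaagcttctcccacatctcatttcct
H3c13, chr3:96268454-96268653: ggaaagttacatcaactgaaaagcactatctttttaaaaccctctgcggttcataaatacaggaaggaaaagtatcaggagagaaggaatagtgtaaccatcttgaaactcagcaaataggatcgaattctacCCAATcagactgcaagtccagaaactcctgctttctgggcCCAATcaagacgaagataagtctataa
H4c4, chr13:23581368-23581567: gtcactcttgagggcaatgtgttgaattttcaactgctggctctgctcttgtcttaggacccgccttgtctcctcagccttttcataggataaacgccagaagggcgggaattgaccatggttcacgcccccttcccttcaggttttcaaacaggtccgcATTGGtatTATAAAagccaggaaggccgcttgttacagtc

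RefSeq's table held 52 of the 58 histone genes named, with a window of 250 bases before and 50 after the start. CCAAT, which the factor NF-Y binds, stood in the windows of 10 of 10 H3, 16 of 16 H2B, 5 of 5 H2A and 7 of 9 H1 genes but 3 of 12 H4 genes, against 37.9% of 27025 genes in the table. It occurred more than once in 8 of 10 H3, 16 of 16 H2B and 5 of 5 H2A genes and in 1 of 12 H4 genes, against 12.2% of all. TATAAA stood in 8 of 12 H4, 4 of 10 H3, 8 of 16 H2B, 4 of 5 H2A and 4 of 9 H1 genes, against 14.2% of all. The octamer was found in 6 of 16 H2B and 4 of 5 H2A genes and in 0 of the H1, H3 and H4 genes, against 1.75% of all. The H1 box was found in 5 of 9 H1, 2 of 5 H2A and 2 of 16 H2B genes and in 0 of the H3 and H4 genes, against 7.14% of all. Pairs of neighbours were sought among these 52 genes alone, with 5 H2A genes, so pairs with other genes of the clusters could not be counted. In 3 places an H2A and an H2B gene start back to back within 164 to 281 bases, H2ac15 with H2bc15, H2ac8 with H2bc8, and H2ac1 with H2bc1. Of these, H2bc8 fell, and its partner H2ac8 lay below background at 4.98, 5.00 and 4.86 in KO and 5.08, 4.95 and 4.96 in WT. These matches describe the letters of the windows and were not set against binding data.

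The genes that transcribe and process histone mRNA were mostly not past the test. Of 21 measured, 1 fell and 0 rose, with a median of -0.05. Npat, a substrate of the cyclin E kinase that activates histone genes in S phase, read 8.90, 9.06 and 8.98 in KO and 9.22, 8.90 and 9.01 in WT, a difference of -0.07 (limma adjusted p = 0.744). Slbp, the stem-loop binding protein, read 8.71, 8.79 and 8.70 in KO and 8.80, 8.78 and 8.85 in WT, a difference of -0.07 (limma adjusted p = 0.381). The groups overlapped for both. Hinfp, which binds H4 promoters, and Casp8ap2, a component of histone locus bodies, differed by -0.13 (limma adjusted p = 0.262) and -0.07 (limma adjusted p = 0.648). Lsm10, part of the U7 particle that cuts histone precursors, differed by 0.11 (limma adjusted p = 0.152). Eri1, an exonuclease that trims the stem-loop end, also differed by 0.11 (limma adjusted p = 0.266). Ncbp2, a subunit of the nuclear cap-binding complex, fell by 0.27 (limma adjusted p = 0.0471), and Ccne2, a cyclin E, differed by -0.31 (limma adjusted p = 0.104).

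Of 23 measured genes of DNA synthesis, a process to which histone mRNA production is coupled, 9 fell and 0 rose, with a median of -0.19. Pola1, the catalytic subunit of DNA polymerase alpha, read 7.28, 7.20 and 7.15 in KO and 7.64, 7.55 and 7.62 in WT and fell by 0.39 (limma adjusted p = 0.00812). Mcm5, of the replicative helicase, read 8.74, 8.79 and 8.69 in KO and 9.12, 9.01 and 9.03 in WT and fell by 0.31 (limma adjusted p = 0.0123). Pcna, the sliding clamp, read 10.76, 10.80 and 10.80 in KO and 10.95, 10.94 and 10.94 in WT and fell by 0.16 (limma adjusted p = 0.0326). KO and WT did not overlap in these 3. Mcm2 differed by -0.20 (limma adjusted p = 0.0586), while Fen1 and Cdt1 differed by 0.03 and 0.04. The part of DNA synthesis in the histone values was not tested.

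Of 22 histone chaperone and assembly genes measured, 2 fell and 1 rose, with a median of -0.07. Asf1b, which hands new H3-H4 to the assembly factors in dividing cells, read 9.01, 8.93 and 8.98 in KO and 9.29, 9.25 and 9.26 in WT and fell by 0.30 (limma adjusted p = 0.00812). Anp32e, a chaperone of the variant H2A.Z, fell by 0.26 (limma adjusted p = 0.0345). Chaf1b, of the assembly factor CAF-1, rose by 0.18 (limma adjusted p = 0.0315), while its partner Chaf1a differed by -0.15 (limma adjusted p = 0.156).

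Among 8 measured genes of variant histones, which replace the clustered forms in special chromatin and are mostly made outside S phase too, 1 fell and 1 rose, with a median of -0.02. Cenpa, the H3 variant of centromeres, read 9.29, 9.29 and 9.28 in KO and 9.70, 9.62 and 9.57 in WT and fell by 0.34 (limma adjusted p = 0.00812). Macroh2a1, an H2A variant with a macrodomain, read 10.13, 10.16 and 10.17 in KO and 10.01, 10.01 and 9.98 in WT and rose by 0.15 (limma adjusted p = 0.0371). Neither gene's groups overlapped. The H2A.Z genes H2az1 and H2az2 differed by -0.10 (limma adjusted p = 0.248) and -0.21 (limma adjusted p = 0.0601). H2ax, the variant phosphorylated at DNA breaks, and H3f3a, for H3.3, differed by 0.03 (limma adjusted p = 0.731) and -0.02 (limma adjusted p = 0.845). The H3f3a means of 7.05 in KO and 7.07 in WT lay little above the background level of 6.82. Little can therefore be read from its difference. H3f3b had no probe set of its own in this annotation and was not analysed here. Of 9 other genes that lie inside the histone clusters 0 passed the limma test, with a median of -0.04. Only 2 of the 9, Prss16 and Hfe, were above background, so the rest could hardly show a change. Hfe, an iron regulator and the lowest of the 9, differed by -0.19 (limma adjusted p = 0.206). It alone had an unadjusted p under 0.05.

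**Figure D4:**
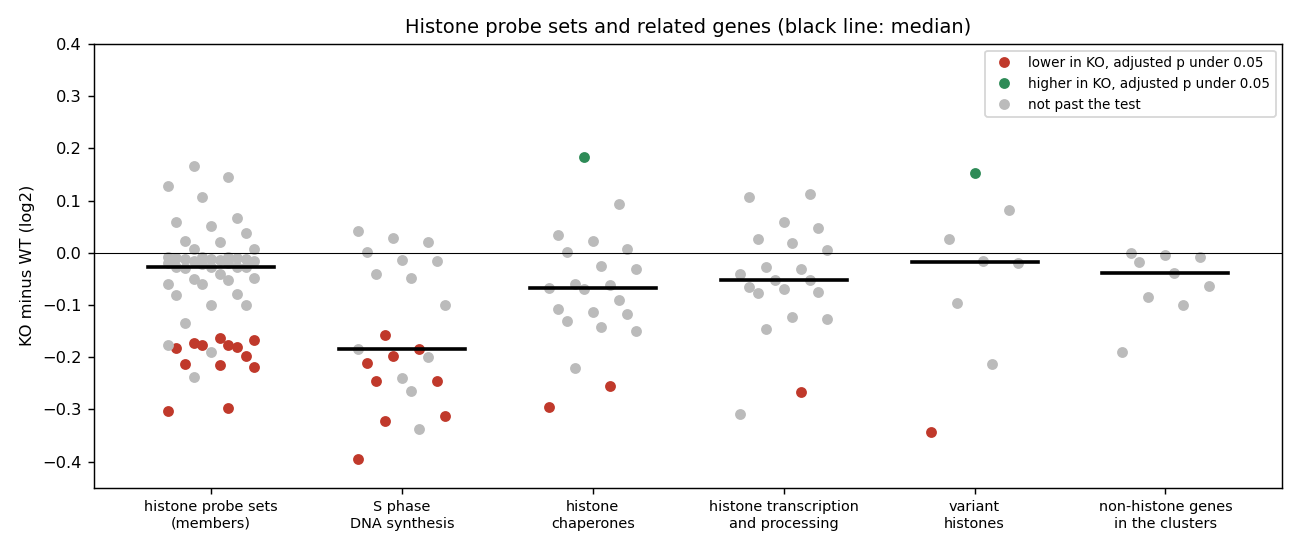
KO minus WT difference (log2) of the histone probe sets and of 5 related gene lists, with a point for each probe set or gene and a black line at the median of each list. Of the 23 DNA synthesis genes 9 lie among the called falls, and the median line of that list is at -0.19, against -0.03 for the histone probe sets.

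Markers of cell types moved in part with genotype. Of 9 stromal markers 2 fell and 1 rose, and their summed linear level was 10010 to 10420 in KO and 10770 to 10960 in WT. Col1a1, which fell by 0.28 (limma adjusted p = 0.0140), gave 4395 to 4786 of this sum in KO and 5491 to 5528 in WT, and the other 8 markers summed higher in KO, to 5619 to 5759, against 5246 to 5472 in WT. Nt5e fell by 0.28 (limma adjusted p = 0.0173) and Pdgfra rose by 0.26 (limma adjusted p = 0.0191). Pdgfrb and Cxcl12 differed by 0.14 (limma adjusted p = 0.0502) and 0.21 (limma adjusted p = 0.0747), with every KO value above every WT value. Of 6 adipocyte markers 1 fell, Fabp4, with sums of 1889 to 2016 in KO and 2227 to 2370 in WT. Fabp4 made most of these sums, and the median difference of the 6 was -0.04, with 4 negative. Adipoq and Lep were not above background in either group. Of 8 macrophage markers 1 fell, the lysosomal gene Cd68, with sums of 2358 to 2372 in KO and 2593 to 2628 in WT. Cd68 made most of these sums, and the median difference of the 8 was 0.04, with 2 negative. Adgre1, Csf1r, Lyz2 and Ptprc were not above background. Of 4 osteoclast markers 1 rose, Ctsk, with sums of 1333 to 1388 in KO and 1262 to 1273 in WT, and Dcstamp was not above background. Of 4 endothelial markers 1 fell, Kdr, with sums of 390.2 to 410.2 in KO and 411.1 to 431 in WT. Differences were negative for Kdr and Tek and positive for Pecam1 and Cdh5, and Pecam1 and Tek were not above background. The 6 neutrophil markers summed to 542.9 to 561.8 in KO and 524 to 569.2 in WT, and none passed the test. None of the B cell, T and NK cell or erythroid markers passed either, and of these Cd3e alone was above background. The part of these shifts in the histone values was not tested.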

How the data were processed

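The authors made the deposited log2 expression values with RMA, robust multi-array averaging. The submitters' processing notes name it beside Partek and Affymetrix Expression Console. RMA scales the arrays to each other, so differences are relative to the other transcripts. Arrays give no read depth, and their number limits the precision. Of 35556 probe sets, 23410 had a gene symbol in the platform annotation, which can be old, and 12146 had none. Of those with a symbol 21789 had 1 and 1621 several; 21698 of the single ones matched the GRCm38.p6 gene table. Platform symbols alone gave 47 histone probe sets, and older names of the same gene IDs added 11 (H4bc24, for example, was Hist1h2br, an H2B gene). Another 3 probe sets list histone genes beside other genes and were left out.

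KO was compared with WT by limma (version 3.58.1, R 4.3.3; lmFit and eBayes, two-sided, no covariates), with Benjamini-Hochberg adjustment over all 23410 probe sets and a call where the adjusted p was under 0.05. KO minus WT differences are on the log2 scale, SE is the moderated standard error and intervals are 95%. The fit was tested on simulated data. The named genes are the called histone probe sets and the extremes and brightest of each class. From each related list they are the most changed and the main genes. H1f5, H2bc4, H4c14, H4c4, H3c4, H3c7, H2ac8 and Cxcl12 were added after their values were seen. So were the H3 probe set 10408202 and the probe set for H2bc6 and H1f4. Members and lists were chosen with earlier results of these data known. Alternatives were other normalizations, rows, filters, weights, variance priors, a replicate block and leaving out each array. Same-numbered KO and WT arrays did not deviate together (correlations -0.337, -0.329 and 0.0083), so numbers were not treated as pairs. Across numbers, KO replicate 1 with WT replicate 2 gave 0.392 and KO replicate 2 with WT replicate 1 gave 0.270. The other combinations lay between -0.118 and 0.116. The files name no genome build, so no gene coordinates are given beyond the RefSeq promoters.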

Additional observations from a re-analysis of the deposited data

How the results depend on the processing

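The 13 histone falls became 5 after quantile normalization, 6 after cyclic loess, 2 with all rows of the table in the fit, 4 with 1 probe set per gene, 4 among single-gene members, 0 with the replicate number as a block, and 0 to 7 with 1 array left out; they were 14 above background, 16 with a variance trend and 18 with array weights, where 1 probe set, H1f3, was higher. In the setting with array weights, WT replicate 3 weighed 8.62 and the other arrays 0.488 to 1.26. The block left 0 of the 10 shared H3 probe sets called, and 8 lower and 8 higher of all probe sets. The labels do not say that the replicate numbers pair the samples. Over all probe sets the 861 falls became 477 with all rows, 1307 above background, 2209 with array weights, 1330 with a variance trend and 68 to 545 with 1 array left out, and the 697 rises 393 with all rows, 1927 with array weights and 90 to 444 with 1 array left out.

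The median difference of H2B was 0.0234 after quantile normalization and 0.0269 after cyclic loess, that of H4 0.0142 after cyclic loess, and that of H3 -0.124 after quantile normalization, -0.135 after cyclic loess and -0.0802 with 1 probe set per gene or single-gene members alone. That of H2A was -0.0798 above background or by platform symbols alone (chosen after seeing the data) and -0.0842 to -0.0398 with 1 array left out. Signs turned for H2aw after quantile normalization (0.0102), for the H2B probe set 10403980 after quantile normalization (0.0194) and cyclic loess (0.0258), for the H4 probe set 10404067 after cyclic loess (0.0299) and for H3c15 without WT replicate 3, its range with 1 array left out being -0.0410 to 0.136. The causes were not tested. The planned setting without H1f0 was not run, since no probe set names H1f0. Also chosen after seeing the data were leaving out H1f7, H1f8 and H1f10, counting equal profiles once, which left 13 falls each, and the bright probe sets. With 3 arrays a group, near copies read by the same probes and an unstated primer, a fall of a single H3 gene or a change of RNA without a tail could not be resolved.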
